A study of Mus musculus with 12 samples.

Results

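The Fc receptors for IgG were followed in mouse bone marrow derived macrophages (BMDMs) as 6 genes out of the 35275 genes that were counted. They were chosen by name, not by a rule on their values, but with earlier results of these data known. Fcgr1, Fcgr2b, Fcgr3 and Fcgr4 encode the Fcγ receptors of the cell surface. Fcer1g encodes the signalling chain that the activating receptors share, and Fcgrt encodes the neonatal Fc receptor FcRn. All 6 genes passed the filter on low counts and were tested.

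BMDMs were grown for 6 days from wildtype bone marrow with IL-10 (10 ng/ml), M-CSF (20 ng/ml) and IL-4 (20 ng/ml), cytokines that drive progenitors toward macrophages of the M2 kind. Throughout these 6 days the cultures also received DMSO, which is the solvent control, or olaparib, an inhibitor of the DNA repair enzyme PARP, or MNA (methyl-nicotinamide, a NAD derivative), with 4 libraries in each of the 3 groups. The donors of bone marrow were 6 to 10 weeks old mice of either sex, and their strain and the doses of both agents are not given in the sources used here. All 3 groups share the cytokines, so each comparison is between cells that were being polarized in the same way.

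IgG that has bound its antigen is read by macrophages through Fcγ receptors. Fcgr1 encodes the high affinity receptor, and Fcgr3 and Fcgr4 encode receptors of lower affinity. These 3 activate the cell by way of the Fcer1g chain, whose tyrosine motif (ITAM) is phosphorylated by Src family kinases such as Lyn and then binds the kinase Syk. Fcgr2b is the only inhibitory receptor of the family: its own tyrosine motif (ITIM) binds the phosphatase SHIP1, the product of Inpp5d, and so sets a threshold against activation. In monocytes and macrophages interferon γ is known to raise activating receptors, whereas IL-4 is known to raise the inhibitory receptor. FcRn works inside endosomes, where it pairs with β2-microglobulin (B2m) and returns IgG to the cell surface.

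The ITAM and the ITIM lie in short coding stretches, which are shown because the results below set these genes against each other. Each is read 5′ to 3′ from the principal GENCODE transcript, with the tyrosine codons of the motif in capitals. In Fcer1g the ITAM spans coding bases 193 to 237 of 261, in the related adaptor gene Tyrobp it spans bases 274 to 318 of 345, and the stretch around the ITIM of Fcgr2b spans bases 922 to 993 of 1023.
Fcer1g: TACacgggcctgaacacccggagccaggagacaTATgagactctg
Tyrobp: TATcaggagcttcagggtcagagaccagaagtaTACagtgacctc
Fcgr2b: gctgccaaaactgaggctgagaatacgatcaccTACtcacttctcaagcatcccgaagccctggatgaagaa
Both adaptors hold 2 tyrosine codons in the motif and Fcgr2b holds 1. No stretch of the ITAM kind was found by the same search in Fcgr1, Fcgr3 or Fcgr4. The form of the ITIM is short, and its search also gave 3 matches in Fcgr1 and 1 each in Fcgr4, Fcer1g, Fcgrt and Tyrobp, so a match alone does not set Fcgr2b apart.

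Outside this motif Fcgr2b and Fcgr3 are close relatives. Their coding sequences are identical at 83.7% of 787 aligned bases, against 58.7 to 63.3% for the other pairs of Fcγ receptor genes. The longest run without a difference has 129 bases, at coding bases 278 to 406 of Fcgr2b and 263 to 391 of Fcgr3, and is printed without capitals because no base differs.
Fcgr2b and Fcgr3: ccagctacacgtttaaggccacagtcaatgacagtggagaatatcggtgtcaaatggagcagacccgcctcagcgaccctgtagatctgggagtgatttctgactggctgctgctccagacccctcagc
Of the 31-base words in Fcgr3 transcripts 13.4% also occur in Fcgr2b, and of 100-base words 2.54%. At the read length of 150 bases 0 words of Fcgr3 were shared with any other gene, and the same held for each of the other 5 genes, so a full read without errors from an annotated transcript fits only 1 of these genes. Fcgr2b overlaps an antisense gene, Gm38204, over 155 bases or 2.68% of its exon length.

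Fcgr2b (ENSMUSG00000026656, chr1:170958617-170976547, minus strand), Fcgr4 (ENSMUSG00000059089, chr1:171018920-171029761, plus strand), Fcgr3 (ENSMUSG00000059498, chr1:171051174-171064935, minus strand) and Fcer1g (ENSMUSG00000058715, chr1:171229572-171234365, minus strand) lie close together on chromosome 1 of GRCm38. Fcgr1 (ENSMUSG00000015947, chr3:96282909-96293969, minus strand) and Fcgrt (ENSMUSG00000003420, chr7:45092990-45103851, minus strand) lie elsewhere.

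The 250 bases before the RefSeq start are shown for Fcgr1 and Fcgr4, the members with the lowest level and with the largest rise under olaparib, because both genes are known interferon γ targets. The windows are chr3:96293970-96294219 (minus strand) and chr1:171018676-171018925 (plus strand) of GRCm38.p6. Capitals mark matches, on either strand, to GAGGAA, a core that PU.1 binds. Elements of the interferon γ response were not searched for, so lower case does not mean that none is present.
Fcgr1: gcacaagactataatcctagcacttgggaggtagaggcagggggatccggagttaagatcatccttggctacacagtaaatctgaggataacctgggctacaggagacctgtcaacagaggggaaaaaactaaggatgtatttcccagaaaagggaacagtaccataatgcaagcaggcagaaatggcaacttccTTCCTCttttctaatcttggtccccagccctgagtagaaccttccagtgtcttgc
Fcgr4: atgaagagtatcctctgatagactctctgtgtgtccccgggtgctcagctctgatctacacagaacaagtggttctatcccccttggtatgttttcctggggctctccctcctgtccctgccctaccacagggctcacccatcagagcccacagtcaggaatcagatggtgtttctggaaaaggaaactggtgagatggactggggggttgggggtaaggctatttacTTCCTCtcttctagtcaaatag
GAGGAA was found in Fcgr1, Fcgr3 and Fcgr4, each with 1 match, and 23.3% of 32851 promoters hold it. The spacing of STAT6 sites, TTCNNNNGAA, was found in 0 of the 6 genes, against 5.85% of promoters. No other spacing of STAT sites was searched for. The motifs do not overlap each other, and a match describes letters only.

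The libraries held between 21146291 and 31446849 counts, with overlapping ranges in the 3 groups. All 10 macrophage markers, among them Adgre1, Csf1r and Cd68, were at 1 CPM (read counts scaled to library size by TMM) or more in every group, so the cells carried the markers of their label. MNA replicate 2 stood apart. On the first 2 principal components, with 49.8 and 24.9% of the variance, it lay with the DMSO libraries, and in all 6 Fc receptor genes its value lay nearer to the DMSO mean than to the mean of the other MNA libraries. Whether this library was mixed up, was not treated or did not respond cannot be told apart here. It is therefore shown apart, and tests of MNA against DMSO are given with all 12 libraries and again without it. In a common fit it also widens the spread for olaparib, since the common dispersion was 0.0333 with it and 0.0123 without it.

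With DMSO the order of the genes, on the TPM scale (reads per exon length, scaled to the library), was Fcer1g at a mean of 728, Fcgr3 at 541, Fcgr2b at 194, Fcgrt at 50.7, Fcgr4 at 40.8 and Fcgr1 at 1.15. The ranges of the 4 libraries did not overlap between any neighbours in this order, although Fcgrt (44.1 to 59.9) and Fcgr4 (39.1 to 43.0) lay close. With olaparib Fcer1g (735 to 801) and Fcgr3 (679 to 829) overlapped, and so did Fcgr4 (75.5 to 112) and Fcgrt (68.2 to 78.7). With MNA (replicates 1, 3 and 4) Fcgr2b (54.4 to 71.1 TPM) lay below both Fcgrt (93.9 to 107) and Fcgr4 (76.8 to 80.9), and thus fell from the third to the fifth place. Fcgr1 was last in each group.

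**Figure D1:**
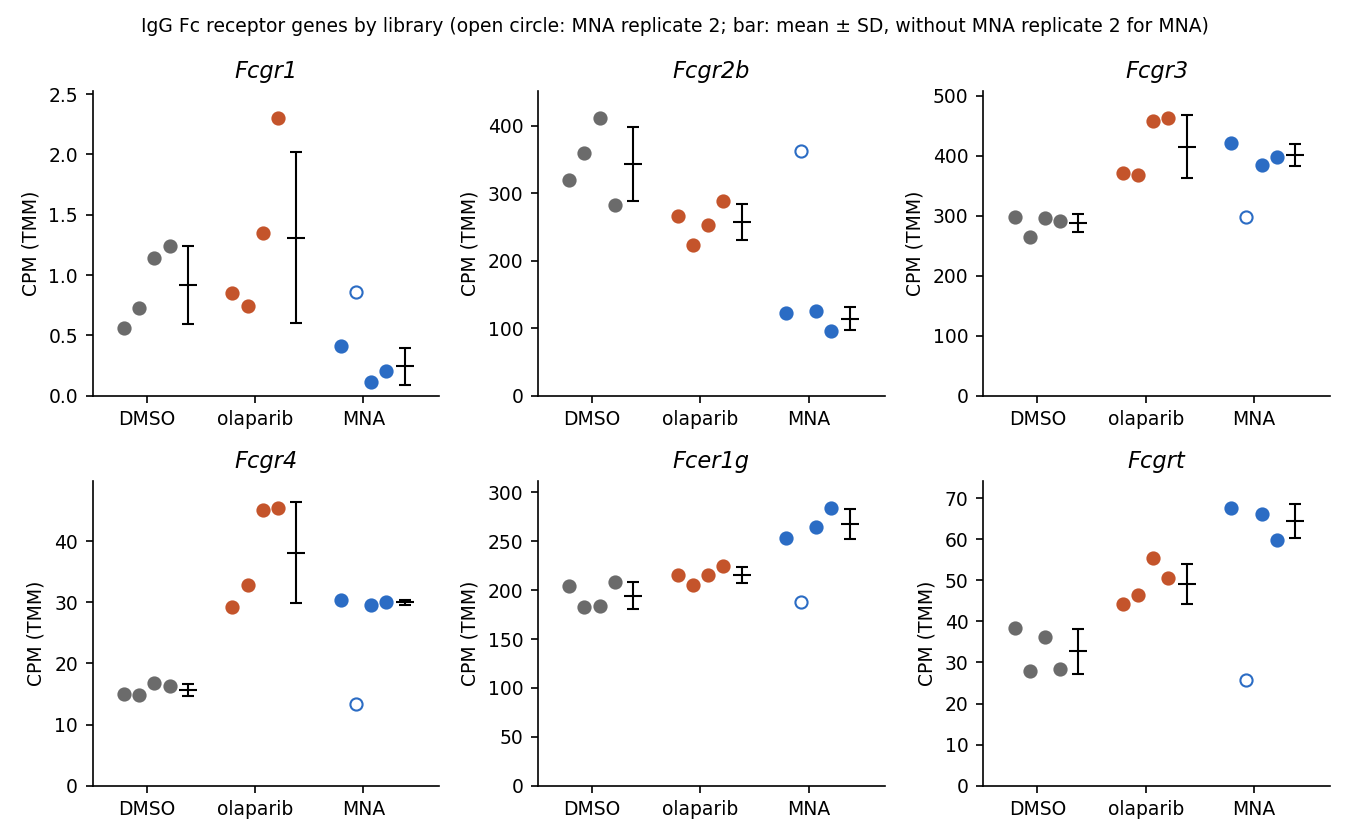
TMM-scaled CPM (vertical axes, from 0) of each gene in each library, with the DMSO, olaparib and MNA groups side by side, where circles are libraries and bars give mean ± SD without MNA replicate 2. That library (open circle) lies among or near the DMSO libraries in all 6 panels, with Fcgr4 at 13.4 CPM against 29.5 to 30.4 in the other MNA libraries.

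In olaparib-treated BMDMs 2 of the 6 genes were up-regulated against DMSO at an adjusted p below 0.05 and 0 were down-regulated, where 14.3% of all 12849 tested genes were higher and 12.8% lower. The 2 were Fcgr3 and Fcgr4, activating receptors both, and at an unadjusted p below 0.05 edgeR added 1 gene, Fcgrt, which was higher. At that unadjusted threshold 5280 of all 12849 tested genes passed, in either direction. The median log2 fold change of the 6 genes was 0.52, and that of all tested genes 0.00378. When MNA replicate 2 was left out Fcgrt was also higher and Fcgr2b lower, so that 3 genes rose and 1 fell, beside 22.5 and 21.2% of 13023 tested genes. Fcgrt and Fcgr2b were also called by edgeR with only olaparib and DMSO in the fit (adjusted p = 0.00112 and 0.00891).

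With MNA 4 of the 6 genes were up-regulated, Fcgr3, Fcgr4, Fcer1g and Fcgrt, and 0 were down-regulated, where 16.3 and 12.3% of all tested genes were. Fcgr2b was lower at an unadjusted p of 0.0154 and was called lower by DESeq2 (adjusted p = 0.0481). An unadjusted p below 0.05 from edgeR was reached by 5756 of 12849 tested genes, in either direction. Without MNA replicate 2 all 6 were called, with the same 4 genes higher and Fcgr1 and Fcgr2b lower, beside 27.2 and 26.9% of tested genes. In that fit 0 of the 6 genes overlapped between MNA and DMSO, while 27.1% of genes lay wholly higher and 27% wholly lower. The 2 receptors that fell, the high affinity one and the inhibitory one, thus moved against the others.

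With all 12 libraries the 4 MNA calls lay near the threshold. Each was lost on leaving out any 1 of DMSO replicates 2, 3 and 4 or MNA replicates 1, 3 and 4, with adjusted p up to 0.0824 for Fcgr3, 0.106 for Fcgr4, 0.106 for Fcer1g and 0.112 for Fcgrt. Leaving out DMSO replicate 1 also ended the calls of Fcgr4 (0.0731), Fcer1g (0.0516) and Fcgrt (0.0504). Leaving out any 1 olaparib library ended that of Fcgrt (0.0515 to 0.0546). With only MNA and DMSO in the edgeR fit, MNA replicate 2 included, 0 of 12379 tested genes were called. The adjusted p of the 4 genes was then 0.0665 to 0.0942. Without MNA replicate 2 the 6 calls held when each of the other 11 libraries was left out as well, with the highest adjusted p at 0.0447, for Fcgr1.

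**Figure D2:**
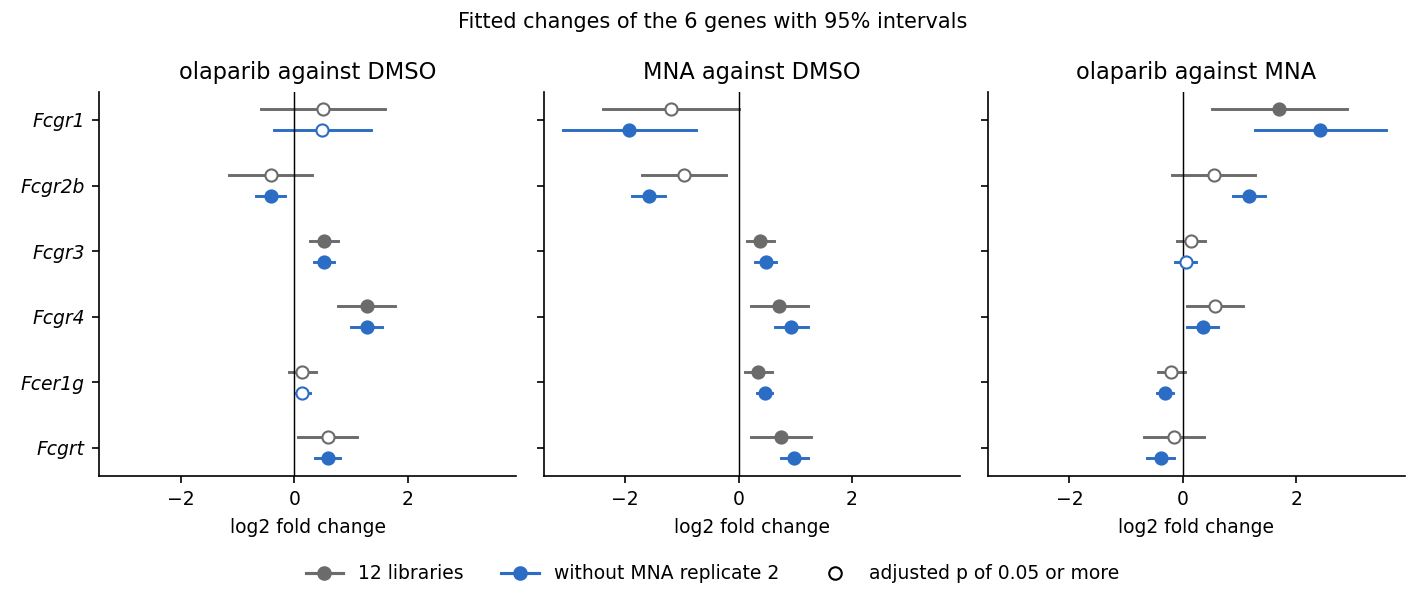
Log2 fold changes (horizontal axis) of the 6 genes in the 3 comparisons, with 95% intervals, from the fit of 12 libraries (grey) and without MNA replicate 2 (blue). Open circles did not pass the test, and the intervals for MNA narrow without that library, as for Fcgr2b from -1.70 to -0.22 against -1.88 to -1.30.

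Fcgr3, the receptor with the highest level per length (TPM) among the 4, stood at 297, 265, 297 and 290.4 CPM in DMSO replicates 1 to 4. It was at 371, 368, 458 and 462 CPM with olaparib. In MNA replicates 1, 3 and 4 it was at 421, 385 and 398 CPM, and in MNA replicate 2 at 298. All olaparib libraries and all MNA libraries lay above all DMSO libraries, MNA replicate 2 only just. The log2 fold change was 0.53 for olaparib (standard error 0.112, adjusted p = 0.00608 from edgeR) and 0.39 for MNA (standard error 0.112, adjusted p = 0.0284). The MNA value was 0.48 without MNA replicate 2 (standard error 0.0864, adjusted p = 0.000351).

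Fcgr4, the mouse receptor for IgG2a and IgG2b, had the largest rise of the 6 genes under olaparib. Its DMSO libraries were at 14.95, 14.8, 16.8 and 16.3 CPM, a narrow range. With olaparib they were at 29.3, 32.9, 45.1 and 45.4 CPM, all of them above DMSO. MNA replicates 1, 3 and 4 were at 30.4, 29.5 and 30.1 CPM, but MNA replicate 2 was at 13.4, below every DMSO library. Olaparib raised Fcgr4 2.43-fold, by 1.28 on the log2 scale (adjusted p = 0.00277, standard error 0.231). For MNA the change was 0.72 (adjusted p = 0.0377) with all libraries and 0.93 (1.91-fold, standard error 0.133, adjusted p = 4.94e-05) without MNA replicate 2. The calls of Fcgr3 and Fcgr4 under olaparib held when each of the 12 libraries was left out in turn, with an adjusted p of at most 0.0235. In same-numbered libraries olaparib exceeded DMSO in 4 of 4 pairs for both genes.

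Fcgr4 is also found on nonclassical monocytes, and 5 markers of these cells (Ace, Treml4, Nr4a1, Spn and Itgal) were looked at beside it. Their summed level was 19.3 to 23.5 CPM with DMSO, 56.9 to 76.0 with olaparib and 49.5 to 55.8 in MNA replicates 1, 3 and 4, and 3 of the 5 markers had a group mean of 1 CPM or more. Most of the sum was Itgal, with a mean of 11.5 CPM with DMSO and 51.1 with olaparib. Spn was at a mean of 6.96 CPM with DMSO, 11.3 with olaparib and 14.9 over all MNA libraries. Treml4 was at 0.178, 0.684 and 0.175 CPM in the same order, whereas Nr4a1 was at 2.71, 1.88 and 2.94 CPM. Ace was below 0.1 CPM in each group. The macrophage list was higher as well, at 4888 to 6136 CPM with DMSO and 9409 to 11330 with olaparib. The part of these cells in the rise of Fcgr4 was not tested. In such bulk RNA more cells of a type and more RNA in each cell cannot be told apart, which holds for every gene here.

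Fcgr1, the high affinity receptor, was hardly expressed. Its counts in DMSO replicates 1 to 4 were 12, 21, 34 and 39 reads, or 0.563, 0.723, 1.14 and 1.24 CPM. With olaparib 24, 19, 32 and 66 reads gave 0.848, 0.747, 1.35 and 2.30 CPM, which overlaps DMSO. Only 10, 3 and 5 reads were found in MNA replicates 1, 3 and 4 (0.411, 0.116 and 0.201 CPM), against 24 reads in MNA replicate 2. For olaparib the log2 fold change was 0.50 with a 95% interval from -0.59 to 1.60 (adjusted p = 0.477). For MNA it was -1.19 (adjusted p = 0.114) with all libraries, and without MNA replicate 2 it fell by 1.93 on the log2 scale (standard error 0.546, adjusted p = 0.00861). So few reads limit the precision of each of these values.

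Fcgr2b, the inhibitory receptor, was called lower in both treatments in the fit without MNA replicate 2 and in neither by the main edgeR fit of all libraries. With all libraries it was called lower under MNA by DESeq2 and by edgeR with no filter on low counts (adjusted p = 0.0481 and 0.0498). The same held for edgeR with the replicate number as a block (adjusted p = 0.0321). Its level was 320.0, 360.1, 411 and 282 CPM in DMSO replicates 1 to 4. With olaparib it was 267, 224, 252 and 288 CPM, of which only replicate 4 exceeded the lowest DMSO library. With MNA it was 122, 126 and 95.4 CPM in replicates 1, 3 and 4, all below DMSO, and in MNA replicate 2 it was 363, within the DMSO range. In the main fit of all 12 libraries neither treatment was called, at a log2 fold change of -0.41 (adjusted p = 0.379) for olaparib and -0.96 (adjusted p = 0.0522) for MNA. For olaparib it was -0.42 and passed the test with only olaparib and DMSO in the edgeR fit (adjusted p = 0.00891). Once MNA replicate 2 was left out it fell by 1.59 with MNA, which is 3.01-fold lower (standard error 0.133, adjusted p = 3.5e-07). In the same fit it fell by 0.42 with olaparib (95% interval -0.67 to -0.16, adjusted p = 0.011), with 3 of 4 same-numbered pairs lower and the fourth at 1.02 times DMSO.

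B cells carry Fcgr2b as their only Fcγ receptor, and 6 markers of B cells were looked at beside it. Their summed level was 1.59 to 3.38 CPM with DMSO, 3.71 to 9.002 with olaparib and 14.3 to 23.1 in MNA replicates 1, 3 and 4, most of it from Ighm. The part of B cells in the changes of Fcgr2b was not tested.

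Fcer1g, the chain on which the surface expression of the activating receptors depends, had smaller fitted changes against DMSO than any of them. It was at 204, 182, 183 and 208 CPM with DMSO and at 215, 205, 215 and 225 with olaparib. MNA replicates 1, 3 and 4 were at 254, 265 and 284 CPM, above every other library, and MNA replicate 2 was at 187. The log2 fold change for olaparib was 0.15 (95% interval -0.09 to 0.38, adjusted p = 0.328). Leaving out MNA replicate 2 gave 0.14 (adjusted p = 0.0695), and with the replicate number as a block as well it was 0.15 and passed the test (adjusted p = 0.0301). MNA raised the gene by 0.35 (adjusted p = 0.0342), or by 0.46 without MNA replicate 2 (standard error 0.0654, adjusted p = 4.84e-05).

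Per length, Fcer1g RNA was of the size of the summed RNA of its 3 partners. The ratio of Fcer1g TPM to the TPM of Fcgr1, Fcgr3 and Fcgr4 together was 1.14 to 1.32 in the DMSO libraries and 0.821 to 1.04 with olaparib, without overlap. MNA replicates 1, 3 and 4 stood at 1.09, 1.24 and 1.28, and MNA replicate 2 at 1.17, so that MNA overlapped DMSO. The ratio is a description and was not tested.

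The other adaptors of this kind were tested beside it. Tyrobp, which encodes DAP12 and serves TREM2 and related receptors, went from 221 to 290 CPM with DMSO to 476 to 508 with olaparib, a log2 fold change of 1.01 (adjusted p = 0.00476). In MNA replicates 1, 3 and 4 it was at 396 to 502 CPM and in MNA replicate 2 at 217 CPM, with a change of 0.71 (adjusted p = 0.0265) for all libraries and 0.92 (adjusted p = 2.72e-06) without that library. Hcst, which encodes DAP10, rose by 1.12 with olaparib (adjusted p = 0.0122) and by 0.95 with MNA (adjusted p = 0.0278, and 1.16 with adjusted p = 0.00026 without MNA replicate 2), from a mean of 3.07 CPM. Both adaptors of the list of 2 were called higher in each treatment, beside 14.3% of tested genes with olaparib and 16.3% with MNA. Without MNA replicate 2 these shares of tested genes were 22.5 and 27.2%.

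Fcgrt, which encodes FcRn, stood at 38.3, 27.8, 36.2 and 28.3 CPM with DMSO. It was at 44.2, 46.5, 55.4 and 50.4 CPM with olaparib, above every DMSO library. With MNA it reached 67.5, 66.1 and 59.8 CPM in replicates 1, 3 and 4, above every olaparib library, while MNA replicate 2 was at 25.6, below all others. With olaparib the log2 fold change of 0.59 did not pass the test with all libraries (adjusted p = 0.0874), and did so without MNA replicate 2 (0.59, standard error 0.105, adjusted p = 0.000514). It also passed with only olaparib and DMSO in the edgeR fit (0.59, adjusted p = 0.00112). With MNA the gene rose by 0.75 (adjusted p = 0.0394), or by 0.98 without that library (1.98-fold, standard error 0.112, adjusted p = 6.02e-06). B2m, which encodes the partner chain of FcRn and of class I MHC, was at 1323 to 1588 CPM with DMSO, 1674 to 2272 with olaparib and 1821 to 2412 in MNA replicates 1, 3 and 4. Its log2 fold change was 0.45 with olaparib (adjusted p = 0.0492) and 0.43 with MNA (adjusted p = 0.0528), and 0.55 without MNA replicate 2 (adjusted p = 0.00113).

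Olaparib and MNA were compared directly to ask where their effects on these genes differ. With all 12 libraries 1 of the 6 genes was called, beside 10.9% of tested genes higher and 10.9% lower: Fcgr1 was higher with olaparib, by 1.70 on the log2 scale (adjusted p = 0.0442, standard error 0.547). That call was lost on leaving out any 1 library other than olaparib replicate 2 or MNA replicate 2, with adjusted p between 0.0517 (DMSO replicate 1) and 0.144 (olaparib replicate 4). In the fit without MNA replicate 2, 3 genes were higher and 2 lower with olaparib, beside 21.5 and 20.7% of tested genes. Fcgr1 differed by 2.43 (95% interval 1.27 to 3.58, adjusted p = 0.0024) and Fcgr2b by 1.17 (95% interval 0.89 to 1.45, adjusted p = 1e-05), both higher with olaparib. Fcer1g was lower with olaparib by a difference of -0.31 (adjusted p = 0.00163) and Fcgrt by -0.39 (adjusted p = 0.0112).

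For Fcgr3 the difference without MNA replicate 2 was 0.05, with a 95% interval from -0.14 to 0.24 (adjusted p = 0.687). For Fcgr4 it was 0.35 (95% interval 0.06 to 0.63, adjusted p = 0.0471), with overlapping groups, and this call did not hold when DMSO replicate 1, 2, 3 or 4, olaparib replicate 3 or 4, or MNA replicate 1, 3 or 4 was also left out (adjusted p from 0.0528 to 0.137).

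The balance of activating to inhibitory RNA was computed in each library as the summed TPM of Fcgr1, Fcgr3 and Fcgr4 over that of Fcgr2b. In DMSO replicates 1 to 4 it was 3.32, 2.65, 2.60 and 3.70. With olaparib it was 5.15, 6.18, 6.88 and 6.10, above every DMSO library. In MNA replicates 1, 3 and 4 it was 12.7, 11.3 and 15.4, above every olaparib library, and in MNA replicate 2 it was 2.91. The means were 3.07 ± 0.537 (SD, n = 4) with DMSO, 6.08 ± 0.711 (SD, n = 4) with olaparib and 13.1 ± 2.08 (SD, n = 3) with MNA without replicate 2. Nearly all of the numerator is Fcgr3, and Fcgr1 held under 0.3% of the RNA of the 4 receptors in each library. The ratio was not tested, and it depends on the length taken for each gene: with the longest transcript in place of all exons the means were 2.38, 4.67 and 10.1, in the same order.

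**Figure D3:**
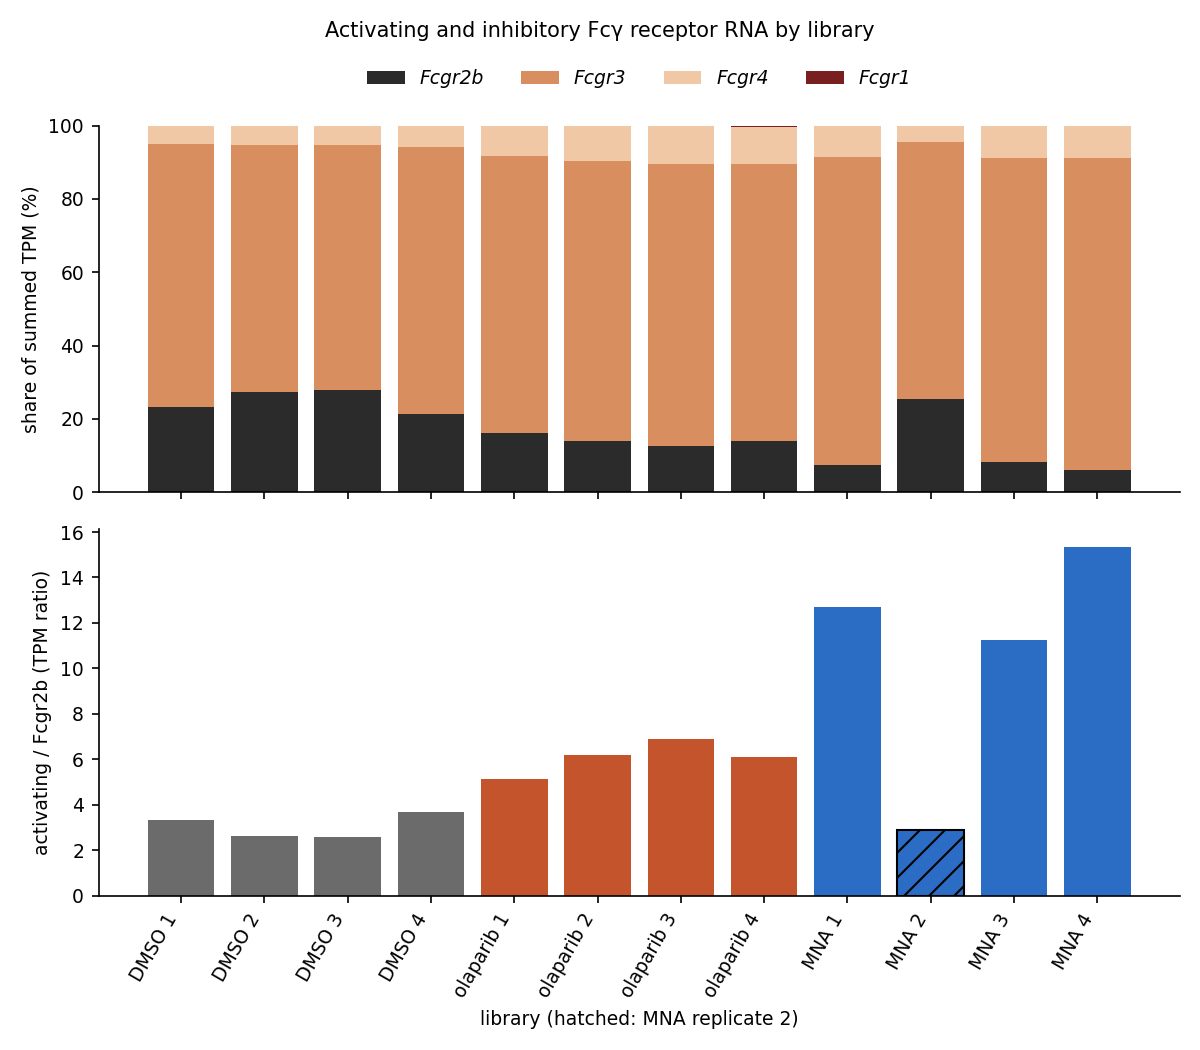
Upper panel, the share (%) of the summed TPM of the 4 Fcγ receptor genes that each gene holds in each library, where Fcgr1 is at most a line at the top. Lower panel, the ratio of activating receptor TPM to Fcgr2b TPM, from 2.60 to 3.70 with DMSO and from 11.3 to 15.4 with MNA, except for the hatched bar of MNA replicate 2 at 2.91.

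Of the RNA of the 4 receptors Fcgr2b held 21.3 to 27.8% with DMSO, 12.7 to 16.3% with olaparib and 6.11 to 8.15% in MNA replicates 1, 3 and 4. The share of Fcgr4 was 4.99 to 5.64%, 8.22 to 10.4% and 8.40 to 8.89% in the same order. MNA replicate 2 had 25.5% Fcgr2b and 4.34% Fcgr4. The Fcgr2b share did not overlap between any of DMSO, olaparib and these MNA libraries, whereas the Fcgr4 shares of olaparib and MNA overlapped.

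Genes that carry the signal of these receptors were taken from lists written by hand. Of 30 genes of activating Fc receptor signalling, all tested, olaparib raised 7 and lowered 3, and MNA raised 9 and lowered 3, with median log2 fold changes of 0.17 and 0.14. Of all tested genes 14.3% were higher and 12.8% lower with olaparib, and 16.3 and 12.3% with MNA. Leaving out MNA replicate 2 gave counts of 15 and 7 with olaparib, beside 22.5 and 21.2% of tested genes, and 15 and 5 with MNA, beside 27.2 and 26.9%. Rac2, a GTPase of the phagocytic cup and the NADPH oxidase, rose by a log2 fold change of 1.09 with olaparib and 1.26 with MNA (adjusted p = 0.00864 and 0.0142). Prkcd, a protein kinase C, and Vav1, an exchange factor for Rac, rose by 0.86 and 0.55 with olaparib (adjusted p = 0.00393 and 0.00282) and by 0.55 and 0.41 with MNA (adjusted p = 0.0309 and 0.0187). The MNA values without MNA replicate 2 were 1.51 for Rac2, 0.71 for Prkcd and 0.50 for Vav1 (adjusted p = 2.09e-08, 1.85e-05 and 2.95e-05).

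Lyn and Syk, the kinases named above for the ITAM, had fitted changes of opposite sign, which does not describe the other kinases of the list. Lyn was at 97.5 to 102 CPM with DMSO, 123 to 145 with olaparib and 213 to 227 in MNA replicates 1, 3 and 4, with log2 fold changes of 0.43 (adjusted p = 0.117) and 0.91 (adjusted p = 0.015), and of 0.43 (adjusted p = 4.19e-05) for olaparib without MNA replicate 2. Syk, which docks on the phosphorylated ITAM, was at 529 to 545 CPM with DMSO, 417 to 466 with olaparib and 409 to 463 in MNA replicates 1, 3 and 4, and fell by 0.25 (adjusted p = 0.0264) and 0.24 (adjusted p = 0.0312). MNA replicate 2 had 509.8 CPM of Syk and 97.8 of Lyn, and without it the MNA values were -0.30 for Syk and 1.12 for Lyn (adjusted p = 0.000722 and 7e-09).

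Of 15 genes of inhibitory signalling that were tested, 3 rose and 1 fell with olaparib, beside 14.3 and 12.8% of all tested genes. With MNA 5 rose and 2 fell, beside 16.3 and 12.3%. Without MNA replicate 2 the counts were 7 and 2 with olaparib, beside 22.5 and 21.2%, and 8 and 2 with MNA, beside 27.2 and 26.9%. Inpp5d, the phosphatase that Fcgr2b recruits, rose from 82.7 to 90.2 CPM with DMSO to 146 to 161 with olaparib, a log2 fold change of 0.83 (adjusted p = 0.000702), and by 0.37 with MNA (adjusted p = 0.036). Ptpn6, which encodes SHP-1, rose by 1.25 with MNA (adjusted p = 0.0142) and stood at 0.69 with olaparib (adjusted p = 0.0595, and 5.02e-06 without MNA replicate 2). Pirb, an inhibitory receptor for class I MHC with ITIMs, rose by 0.77 with olaparib (adjusted p = 0.000998) and was at 0.12 with MNA (adjusted p = 0.433). Csk, the kinase that restrains Src kinases, rose by 0.63 with MNA (adjusted p = 0.0168) and was at 0.40 with olaparib (adjusted p = 0.0585, and 9.1e-05 without MNA replicate 2). For MNA that fit gave 0.47 for Inpp5d, 1.50 for Ptpn6, 0.20 for Pirb and 0.79 for Csk (adjusted p = 0.000243, 3.84e-09, 0.0951 and 1.66e-07).

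Receptors other than those for IgG also use the Fcer1g chain, and 9 of them were tested. Olaparib raised 7 of the 9 and lowered 0, with a median log2 fold change of 1.32, whereas MNA raised 2 and lowered 0, with a median of -0.18. These counts stand beside 14.3% of all tested genes higher with olaparib and 16.3% with MNA. In the fit without MNA replicate 2 olaparib raised 9 of 9 and MNA raised 3, beside 22.5 and 27.2% of tested genes higher. The gene added under MNA was Clec4n (2.20, adjusted p = 0.00235), a C-type lectin named here after its values were seen. Against MNA directly, 7 of the 9 were higher with olaparib and 0 lower, beside 10.9% of tested genes in each direction. That fit gave 8 higher and 1 lower, the latter Cd300ld (-0.68, adjusted p = 1.94e-06), beside 21.5 and 20.7%. Clec4d, a C-type lectin for mycobacterial and fungal ligands, was at 24.7 to 31.05 CPM with DMSO, 106 to 119.5 with olaparib and 20.3 to 29.5 in MNA replicates 1, 3 and 4, a log2 fold change of 2.03 for olaparib (adjusted p = 3.33e-06) and of -0.27 for MNA (adjusted p = 0.102). Lilra6, an activating receptor of the immunoglobulin family that shares sequence with other members, rose by 1.51 with olaparib (adjusted p = 0.000702) and was at -0.17 with MNA (adjusted p = 0.556). The 2 that rose with MNA were Cd300c2 (1.38, adjusted p = 0.016) and Cd300ld (0.87, adjusted p = 0.0142), and Cd300c2 rose by 2.06 with olaparib as well (adjusted p = 0.00118). With MNA replicate 2 left out the MNA values were -0.22 for Clec4d, -0.17 for Lilra6, 1.67 for Cd300c2 and 1.05 for Cd300ld (adjusted p = 0.135, 0.562, 5.74e-09 and 1.8e-08).

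**Figure D4:**
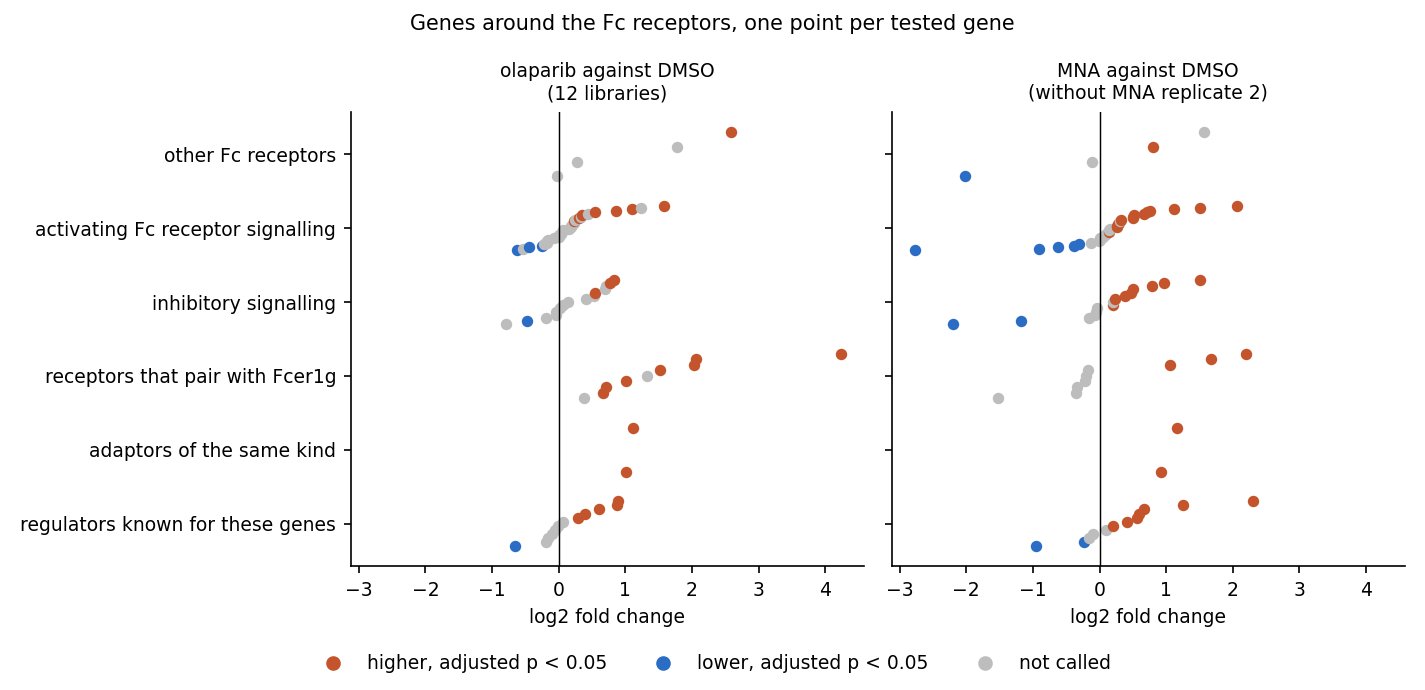
Log2 fold changes (horizontal axis) of each tested gene in the 6 lists, for olaparib against DMSO with 12 libraries and for MNA against DMSO without MNA replicate 2. Colours give the direction of genes that passed the test, and receptors that pair with Fcer1g lie to the right under olaparib, where 7 of 9 rose.

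Of 13 genes for other Fc receptors, 4 passed the filter on low counts. Fcrls, an Fc receptor-like gene of mouse myeloid cells, rose from 14.3 to 53.5 CPM with DMSO to 132 to 197 with olaparib (log2 fold change 2.58, adjusted p = 0.00167) and was at -0.26 with MNA (adjusted p = 0.633). Fcrlb fell with MNA by 1.24 (adjusted p = 0.0402), from 6.70 to 10.8 CPM to 1.81 to 2.51 in replicates 1, 3 and 4. Trim21, the cytosolic receptor that binds antibody on incoming virus, rose with MNA by 0.64 (adjusted p = 0.0224) and stood at 0.28 with olaparib (adjusted p = 0.244). Fcrl1 lay below 1 CPM in every library and was not called. With MNA replicate 2 left out the MNA values were -0.11 for Fcrls, -2.02 for Fcrlb and 0.80 for Trim21 (adjusted p = 0.841, 2.6e-06 and 5.57e-05).

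Of 12 genes for regulators of this family, olaparib raised 5 and lowered 1, and MNA raised 5 and lowered 1, where 14.3 and 12.8% of all tested genes were higher and lower with olaparib and 16.3 and 12.3% with MNA. The counts without MNA replicate 2 were 5 and 1 with olaparib and 7 and 2 with MNA, beside 22.5 and 21.2% and 27.2 and 26.9%. Ifngr1, a chain of the interferon γ receptor, rose by 0.60 with olaparib (adjusted p = 0.00269) and by 0.32 with MNA (adjusted p = 0.0422). Irf1, a transcription factor of the interferon response, rose with MNA, from 46.9 to 69.3 CPM with DMSO to 199 to 302.5 in MNA replicates 1, 3 and 4 (1.99 with all libraries, adjusted p = 0.0142), and was at -0.10 with olaparib (adjusted p = 0.87). The difference between olaparib and MNA was -2.09 (adjusted p = 0.0046). Stat3, which relays IL-10, fell by 0.66 with olaparib (adjusted p = 0.000406), and Cebpb fell by 0.72 with MNA (adjusted p = 0.0197). With MNA replicate 2 left out the MNA values were 0.42 for Ifngr1, 2.31 for Irf1 and -0.96 for Cebpb (adjusted p = 0.00055, 1.71e-07 and 1.04e-05).

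Cells other than macrophages that carry these receptors were looked for by their markers. The 10 neutrophil markers summed to 1.38 to 10.9 CPM with DMSO, 3.07 to 4.09 with olaparib and 5.305 to 69.3 in MNA replicates 1, 3 and 4. The 6 NK cell markers are those of a cell whose only Fcγ receptor is the Fcgr3 product. They summed to 2.72 to 5.06, 11.5 to 20.2 and 34.05 to 51.5 CPM in the same order, mostly Klrb1c with olaparib and Gzma with MNA. Prf1 and Eomes averaged 0.083 and 0.121 CPM with DMSO and 0.274 and 0.455 with olaparib. Over all MNA libraries they averaged 3.46 and 3.01 CPM, with 0.179 and 0.107 in MNA replicate 2. Ncr1 and Klra8 were below 1 CPM in each group. The 7 markers of mast cells and basophils, which use Fcer1g for IgE, stayed at or below 1.119 CPM in every library, with Mcpt4 at 0 in all. The 4 eosinophil markers summed to 3.79 to 6.95 CPM with DMSO and 31.05 to 58.5 with olaparib, nearly all of it Siglecf, with Prg2 and Epx below 1 CPM. The part of the neutrophil, NK cell and eosinophil signals in the changes of Fcgr3, Fcgr4 and Fcer1g was not tested.

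The genes whose pattern over the 12 libraries was most like that of each receptor were found by Pearson r of log2 CPM among genes whose counts averaged 100 or more. The 12 points share 3 treatments and include MNA replicate 2, so r is given as a description. Fcgr4 was followed by Fuca2 (r = 0.986), Ly6e (0.979), which encodes a surface protein induced by interferon, and Idh1 (0.975). Fcgrt was followed by Mpeg1 (0.986), which encodes a pore-forming protein of macrophages, Smap2 (0.984) and Selenop (0.984). Fcgr2b was followed by Dpy19l3 (0.979), Zfp874b (0.979) and Ctsl (0.974), which encodes the protease cathepsin L. Fcgr3 was followed by Gm6548 (0.972), Hibadh (0.964) and Arrdc3 (0.964), and Fcer1g by S100a10 (0.969), Limk2 (0.967) and Gprc5c (0.964). For Fcgr1, with its few reads, the highest values were those of Ormdl1 (0.945), Snx17 (0.945) and Tmeff1 (0.935). Among the members themselves Fcgr3 and Fcgr4 ran together (r = 0.961), and Fcgr2b ran against Fcer1g (-0.954).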

How the data were processed

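RNA from 12 libraries (DMSO, olaparib and MNA, 4 each) was analysed. Per the methods and the submitters' processing notes, the authors sequenced 150-bp single end reads of stranded mRNA libraries, aligned them with STAR 2.5.2b to GRCm38.p5 with the annotation of Ensembl release 99, and deposited raw read counts per gene. The strand column that was kept is not given in the sources used here. The labels give the groups.

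Symbols, positions and exon lengths came from GENCODE M21, the latter for TPM. Genes were kept by filterByExpr (minimum count 10, minimum total 15), which left 12849. Differences were tested with edgeR 4.0.16 in R 4.3.3 (quasi-likelihood F test, TMM, 1 fit of 12 libraries, no block), with Benjamini-Hochberg adjustment over all tested genes and a threshold of 0.05. The same fit without MNA replicate 2 held 13023 genes. Standard errors were taken from the F values, and log2 CPM used a prior count of 2. Depths of 21146291 to 31446849 counts cover counting error only. Sequences came from GENCODE transcripts and, for promoters (7 entries for the 6 genes), RefSeq GRCm38.p6. Python 3.11.15 was used for these.

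The paper's legend names 4 donor mice. Same-numbered olaparib and DMSO libraries deviated together (r across genes 0.227, 0.172, 0.225 and 0.408), so these numbers were taken to pair them. The main tests did not use this pairing, and fits with the replicate number as a block were run as alternatives. No label says whether cultures were otherwise separate, so p-values measure the spread between these libraries. In counts simulated for olaparib against DMSO, with 12700 genes tested, edgeR found 159 of 200 changed genes and called 7 unchanged ones.

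The 6 genes, the lists (written by hand) and the tests were chosen with earlier results of these data known. Besides the 6 genes, the text names Tyrobp, B2m, Syk, Lyn, Inpp5d, Ptpn6 and Trim21, the 2 genes of each list with the smallest p for each treatment, and the 3 genes most like each member. A gene that the rule names is not reported here. Markers were named from fixed lists. Alternatives were DESeq2 1.42.0, other normalizations, filters and thresholds, the replicate block, fits of 2 groups and each library left out. Those applied on top of leaving out MNA replicate 2, except the block, were chosen after seeing the data. Lilrb4a and 4 Pira genes of the lists were not used here.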

Additional observations from a re-analysis of the deposited data

Results flagged for a closer look

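In 18 sets of 4 libraries, 1 for each gene and group, the gap between the most distant library and its nearest neighbour was set against the whole range, and chance alone gives a gap past the limit in about 1 of 20 sets. It passed the limit in 2 sets, both of MNA: for Fcgr2b the gap was 0.886 of the range and for Fcgr4 0.947, and the distant library was MNA replicate 2 in each.

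Direct tests of olaparib against MNA found differences between the agents. With all 12 libraries this was so for Fcgr1 (log2 fold change 1.70). Without MNA replicate 2 it was so for Fcgr1 (2.43), Fcgr2b (1.17), Fcgr4 (0.35), Fcer1g (-0.31) and Fcgrt (-0.39), where positive values are higher with olaparib.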

How the results depend on the processing

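Across 393 refits of the 6 log2 fold changes with all 12 libraries, 322 kept their direction and their side of the threshold, 58 lost a call and 13 gained one. Without MNA replicate 2 these numbers were 345, 23 and 5 of 375, and 2 values changed sign: Fcgr3 in olaparib against MNA was at -0.001325 when olaparib replicate 3 and at -0.007217 when olaparib replicate 4 was also left out (adjusted p = 0.992 and 0.957), in a range of -0.007217 to 0.1025 over all libraries left out (adjusted p from 0.385 to 0.992). The causes of the changes below were not tested beyond what each setting does. In MNA against DMSO with all libraries, 1 Fc receptor gene, Fcgr2b, was called lower with DESeq2, with no filter on low counts and with the replicate block. In olaparib against MNA, 0 were called higher with no filter, with a mean of at least 50 counts (which drops Fcgr1), with the replicate block, with only the 2 groups in the fit and at an adjusted p under 0.01.

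Same-numbered libraries of MNA and DMSO deviated with r of 0.242, 0.114, -0.00938 and 0.277, and those of olaparib and MNA with 0.0696, 0.137, 0.131 and 0.392. In each, 3 of 4 pairs passed 0.1, and the numbers were not taken to pair these groups. The MNA deviations were from a group mean that included MNA replicate 2, which stood apart. These r values therefore cannot show whether the numbers pair these groups. With the replicate number as a block, Fcgr2b in MNA against DMSO stood at -1.10 (adjusted p = 0.0321) and Fcgr1 in olaparib against MNA at 1.635 (adjusted p = 0.0772). The block changed no other call of the 6 genes with 12 libraries, and without MNA replicate 2 only that of Fcer1g under olaparib. Over all tested genes it called 1974 higher and 1722 lower for olaparib, and 2184 and 1984 for MNA against DMSO.

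With only the 2 groups in the fit, 1 Fc receptor gene, Fcgr2b, was lower with olaparib, and Fcgrt was called higher. The lists held 40 higher and 11 lower genes with olaparib. For MNA 0 Fc receptor genes were higher and 0 and 0 list genes were called by edgeR (4728 of 12379 genes had an unadjusted p under 0.05). At an adjusted p under 0.01 the lists held 15 and 1 genes for olaparib, 0 and 0 for MNA and 4 lower in olaparib against MNA, with 0 Fc receptor genes higher under MNA. With a change of at least 2-fold, 1 Fc receptor gene was higher with olaparib and 0 with MNA (0 also without MNA replicate 2), and the lists held 10 and 0, 6 and 3, and 8 and 1 genes in the 3 comparisons. With a mean of at least 50 counts 1 gene was lower with MNA without MNA replicate 2. With the longest transcript, DMSO levels were 247.2 TPM for Fcgr2b and 31.9 for Fcgr4, and the ratios of activating to inhibitory RNA 2.381, 4.671 and 10.12.

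When each library was left out in turn, Fc receptor genes called were 0 to 1 lower with olaparib, 0 to 4 higher and 0 to 2 lower with MNA, and 0 to 3 higher and 0 to 2 lower in olaparib against MNA. List genes were 19 to 39 higher and 1 to 10 lower with olaparib, 5 to 36 and 0 to 10 with MNA, and 6 to 22 lower in olaparib against MNA. The upper ends are those without MNA replicate 2, and the lowest counts of list genes for MNA came without MNA replicate 3. Over all tested genes 1834 were higher and 1641 lower with olaparib, 2093 and 1580 with MNA, and 1395 and 1405 in olaparib against MNA. Without MNA replicate 2 these were 2935 and 2759, 3543 and 3499, and 2805 and 2698. With only the 2 groups they were 2886 and 2834, 0 and 0, and for the last 847 lower. At an adjusted p under 0.01 they were 852 and 530, 0 and 0, and 698 and 468, and at 2-fold 747 and 142, 673 and 284, and 555 and 210. Other libraries left out gave as few as 921 lower with olaparib (olaparib replicate 4), 408 higher and 55 lower with MNA (MNA replicate 3) and 916 lower in olaparib against MNA (MNA replicate 4). Depth limits Fcgr1, with 3 to 66 reads a library.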
